A study of Mus musculus with 94 samples.

Results

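L1 RNA was compared in the hippocampus of wild-type mice that drank lamivudine (WT-t, 17 libraries) and wild-type mice that drank water (WT-nt, 8 libraries), which are 25 of the 94 libraries of the series. The libraries were chosen by their labels for tissue, genotype and treatment, without any measured value. All were from male euploid mice with a labelled age of 3 to 4 months, littermates of Ts65Dn (TS) mice. Ts65Dn is a model of Down syndrome that carries an extra copy of parts of mouse chromosomes 16 and 17, and the colony was kept by crossing trisomic B6EiC4Sn.BLiA-Ts(1716)65Dn/DnJ mothers to B6C3F1/OlaHsd fathers. The labelled dose of lamivudine was 3 mg/kg in the drinking water. Per the study's methods, treatment went on for months, and tissue was dissected after behavioral testing. Whether the labelled age is that at the start of treatment or at dissection is therefore unclear. Ribosomal RNA had been depleted from total RNA before strand-specific sequencing, and the deposited values are counts of reads on single L1 elements. Each label names 1 animal, but the study's methods also describe pooling in groups of 3 per condition, so n counts libraries.

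L1 is the retrotransposon that makes up more of the mouse genome than any other, and it copies itself by transcription into RNA and reverse transcription of that RNA at a new genomic site. Lamivudine is a nucleoside analogue that blocks reverse transcriptase, the step after L1 RNA has been made. Copies are grouped by sequence into subfamilies. L1Md_T, L1Md_A and L1Md_Gf include the copies still able to move in mouse. L1_Mus and Lx names belong to older mouse and rodent lineages, and most L1M and HAL1 names to copies older than the rodents. The HAL1 names also include MusHAL1, a mouse name. Most copies are truncated fragments, many of them inside introns, and RNA read from a fragment can belong to the transcript of the gene around it. An element is named here by its subfamily and a copy number after "_dup", as the deposited table gives it.

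The 8 WT-nt libraries held 240384 to 300382 L1 counts (median 265232) and the 17 WT-t libraries 178454 to 327468 (median 259142). The means were 268188 ± 18184 (SD, n = 8) and 252075 ± 41280 (n = 17), and the difference did not pass an exact two-sided permutation test (p = 0.305, 0.610 adjusted over this and the next measure). The number of elements with at least 1 count was 37785 ± 9437 in WT-nt and 36959 ± 7886 in WT-t (exact permutation p = 0.819, adjusted 0.819). Lamivudine libraries thus held neither detectably more nor detectably fewer L1 reads than water libraries, relative to a spread that was wider in WT-t. These sums were not scaled to the sequencing depth of each library. The table has no counts of genes, so that the tissue could not be checked with marker genes. Each of the 25 libraries correlated better with the mean profile of the other hippocampus libraries than with that of cortex, over 3722 elements, and none of the 300 pairs of libraries was identical. WT-nt replicate 1 and WT-t replicates 1 and 2 stood apart, with 21505, 22938 and 23528 elements detected, beside 30320 or more in the others, and with 25.0, 21.9 and 20.5% of their counts on L1ME names, the highest shares of the 25 libraries. The animal labels started with 20 for all 8 WT-nt mice and with 18, 19 and 20 for 6, 8 and 3 WT-t mice, so that treatment and whatever these digits stand for cannot be told apart in most of the treated mice.

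Among the 4238 elements with enough counts to test, none differed between WT-t and WT-nt hippocampus. At an adjusted p-value below 0.1 edgeR's quasi-likelihood test called 0 elements (0%), and the smallest adjusted p-value was 0.564. Unadjusted p-values below 0.05 were found for 134 elements (3.16%), of which 87 were higher in WT-t (2.05%) and 47 lower (1.11%). DESeq2 with the 4 hippocampus groups also called 0 elements, with 1144 unadjusted p-values below 0.05 among 270853 elements with a count. The median log2 fold change over the 4238 elements was -0.004, the middle 50% lay between -0.25 and 0.25, and 78.4% lay within 0.5 of no change. The resolution was limited, as a tested element had a median of 9 counts per library and a median standard error of 0.49 on the log2 scale. The tested elements held 56.7% of the L1 counts. For 0 elements (0%) did all WT-t libraries lie above or below all WT-nt libraries. The looser criterion of an unadjusted p-value below 0.05 plus a log2 fold change of 1.5 or more in size was met by 21 elements (0.496%), 18 higher and 3 lower in WT-t. The share of higher elements was 49.4% among all 4238 and 64.9% among those with a p-value below 0.05. With treated mice, TS-t included, limited to labels starting with 20, which left 3 WT-t libraries, 6535 elements passed the filter. Of the 135 among them with a p-value below 0.05, 36.3% were higher. The shares are thus of different sets of elements.

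**Figure D1:**
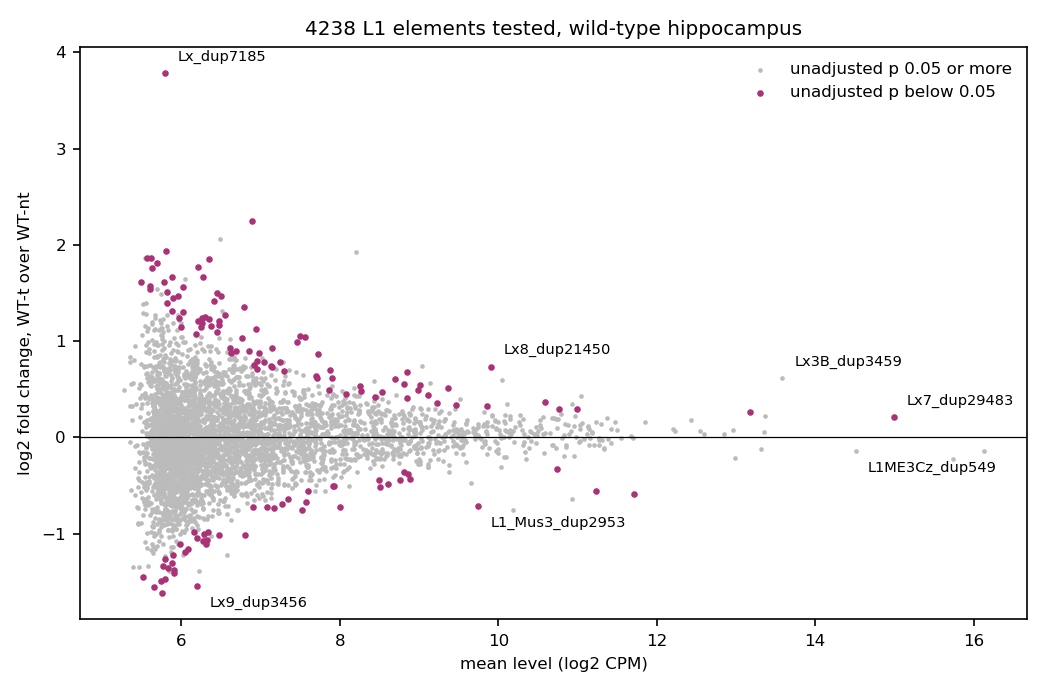
Each point is 1 of the 4238 tested L1 elements, with its mean level (log2 CPM) on the horizontal axis and the fitted log2 fold change of WT-t over WT-nt hippocampus on the vertical axis. Colored points are the 134 elements with an unadjusted p-value below 0.05, and none of them passed adjustment. The spread around 0 is widest for elements of low level.

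Lx8_dup1602, the element that the study lists for this comparison, was higher in WT-nt through 3 libraries in which another Lx8 copy was low. Levels are given as CPM, the counts of an element per 1000000 counts on the tested elements after TMM scaling. The counts of Lx8_dup1602 in WT-nt replicates 1 to 8 were 4, 0, 7, 2, 142, 123, 113 and 0. In WT-t the element had 0 to 66.6 CPM with a median of 24.2, so that 3 WT-nt libraries with 965, 698 and 775 CPM stood far above every WT-t library while the other 5 did not. It failed the filter on low counts and was not among the 4238 tested elements. Lx8_dup21450, which is among the 10 elements higher in WT-t with the smallest p-values, had 156, 142 and 130 CPM in these same 3 WT-nt libraries, in the same order. The other 5 WT-nt libraries had 952 ± 94.3 CPM of it (SD, range 855 to 1090), and the WT-t libraries had 830 at the lowest, a median of 1087 and 1406 at the highest. In each of the 3 libraries, then, Lx8_dup1602 was high and Lx8_dup21450 low, while the other 22 libraries had the opposite.

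The 2 copies summed gave 964 ± 117 CPM in WT-nt (n = 8, range 839 to 1137) and 1108 ± 165 in WT-t (n = 17, range 860 to 1463). The direction of the difference was therefore opposite to that of Lx8_dup1602 alone, at 144 CPM higher in WT-t for the sum (exact two-sided permutation p = 0.0372) and 286 CPM lower for Lx8_dup1602 (exact permutation p = 0.0209). The sum was formed after these values had been seen. Lx8_dup1602 is the element that the study called in this same comparison, so its p-value here is not independent evidence of a difference. On the log2 scale Lx8_dup1602 alone was lower by 0.98 with an exact permutation p of 0.384, and without WT-nt replicate 5, 6 or 7 its p was 0.0654 each time. For Lx8_dup21450 the fitted log2 fold change was 0.74 (SE 0.23, unadjusted p = 0.0021, edgeR's adjusted p = 0.9996), and without the 3 libraries it was 0.20 (SE 0.17, p = 0.232). The whole Lx8 subfamily, to which both copies belong by name, differed by -0.022 on the log2 scale (SE 0.018, p = 0.236).

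High Lx8_dup1602 with low Lx8_dup21450 was also present in 2 cortex libraries of treated mice. The TS-t library had a low sum of both copies (501 CPM) and the WT-t library 1032 CPM. Over all 94 libraries, 5 had more than 50 counts of Lx8_dup1602, the 3 WT-nt hippocampus libraries and the cortex libraries of WT-t replicate 5 (162 counts) and TS-t replicate 1 (75 counts). In these 5 libraries Lx8_dup21450 was at the lowest levels of its tissue, ranks 1 to 3 of 46 in hippocampus and 1 to 2 of 48 in cortex. Of the counts on both copies, Lx8_dup1602 took 86.1% (95% exact Clopper-Pearson interval 79.8 to 91.0), 83.1% (76.1 to 88.8) and 85.6% (78.4 to 91.1) in WT-nt replicates 5, 6 and 7, 85.3% (79.4 to 89.98) in the WT-t cortex library and 67.6% (58.0 to 76.1) in the TS-t cortex library. These intervals cover counting error only. In no other library did its share pass 6.35% in hippocampus (43 libraries) or 6.71% in cortex (46 libraries). No library lay between these values. The pattern of high Lx8_dup1602 with low Lx8_dup21450 was not seen in the other tissue of the same 5 mice. Those libraries had 13, 4, 11, 9 and 0 counts of Lx8_dup1602 beside 194, 188, 185, 151 and 150 counts of Lx8_dup21450, in the order of replicates 5, 6 and 7, WT-t and TS-t. Few elements set the 3 WT-nt libraries apart from all other hippocampus libraries. The 3 WT-nt libraries had been picked by their Lx8_dup1602 counts, so that this element was bound to be high in them. Among 9132 elements with a mean of at least 20 CPM only Lx8_dup1602 and L1Md_F2_dup42623 were higher in the 3 libraries than in every other hippocampus library. Only Lx8_dup21450 was lower than in every other. How many elements would rank so in any other 3 libraries was not tested, so these counts are not set against chance. The lowest of the 3 values of Lx8_dup1602 was 10.4-fold the highest elsewhere, and that of L1Md_F2_dup42623 less than 2-fold. The authors kept up to 5 alignments per read and assigned such reads to 1 copy with Telescope. Whether the 2 copies share reads, and whether their assignment differed between libraries, was not tested.

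**Figure D2:**
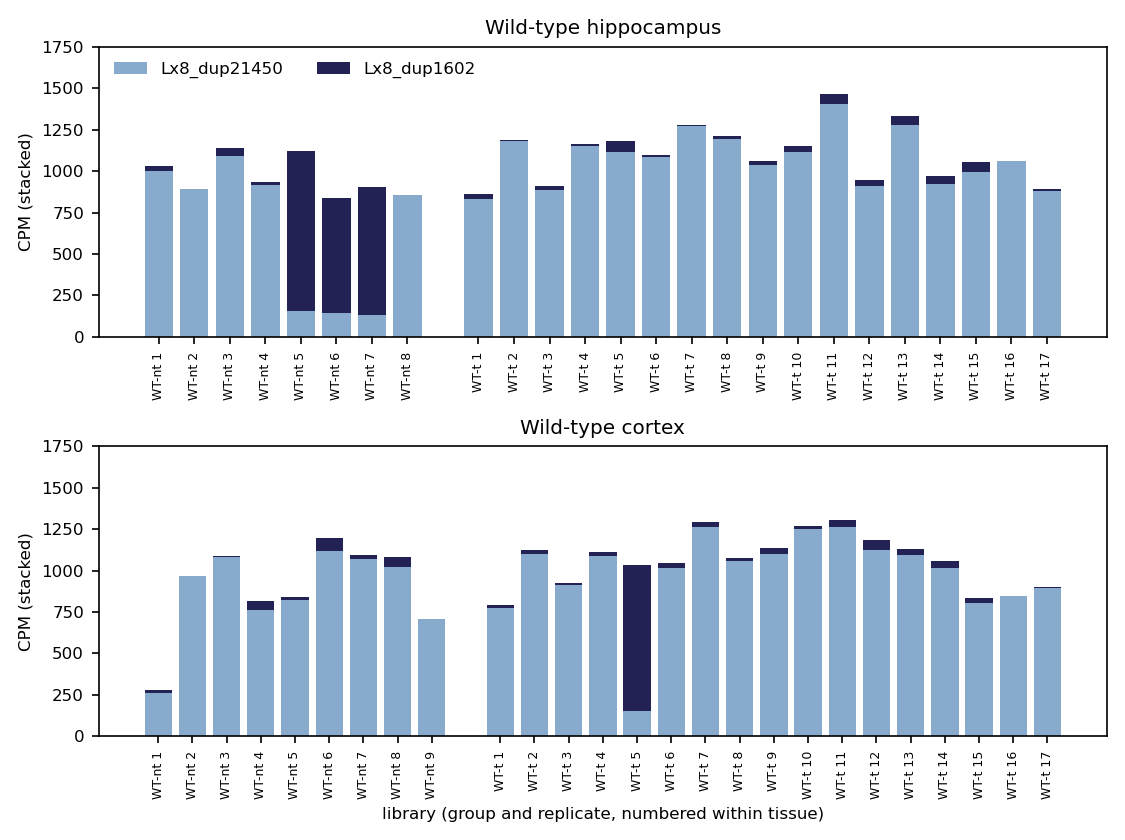
Stacked bars give the CPM of Lx8_dup21450 (light) and Lx8_dup1602 (dark) in each wild-type hippocampus library (top) and each wild-type cortex library (bottom), labelled by group and replicate. The dark part fills most of the bar in WT-nt hippocampus replicates 5, 6 and 7 and in WT-t cortex replicate 5, while the height of these bars (839 to 1122 CPM) is close to that of the others; the bar of WT-nt replicate 6 is the lowest of the hippocampus panel.

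The element with the smallest p-value was Lx_dup7185, a copy of the rodent subfamily Lx. In WT-nt hippocampus it had 3 counts in all, each in replicate 2, and the other 7 libraries were at 0. In WT-t it had 113 counts, with 0 CPM at the lowest, a median of 27.8 and 156 at the highest, and 4 of 17 libraries were at 0. The groups overlapped at 0, and 9 of 17 WT-t libraries were above the highest WT-nt library (20.01 CPM). The ratio of summed counts per library size was 18.3 (95% interval 6.11 to 90.2 for counting error only), and the fitted log2 fold change was 3.79 (SE 0.95, unadjusted p = 1.3e-04, edgeR's adjusted p = 0.564). Without WT-nt replicate 2, the single WT-nt library with any count, the fit gave 5.78 with an adjusted p-value of 0.0311. No other element was called when a library was left out. Lx_dup7185 passed the filter on low counts with the TS libraries in the model, and was absent from edgeR's fit of WT libraries alone. Its place among the tested elements thus depended on the TS libraries. Over the 7 other settings that held it, its adjusted p-value was between 0.0093 and 1.00. Values below 0.1 came only from filters that admit sparse elements, which called 15955 of 126067 and 13239 of 270853 elements. WT-t means by the first digits of the label (in parentheses) were 33.5 (18), 51.3 (19) and 52.8 CPM (20).

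In cortex of the same mice, Lx_dup7185 was at 0 in 6 of the 8 WT-nt mice, which had 4 counts in all, and in 3 of the 17 WT-t mice, which had 153. The ninth WT-nt cortex library, from a mouse without a hippocampus library, differed from these with 15 counts (91.4 CPM). Both tissues were at 0 in 5 WT-nt and 2 WT-t mice. With all 9 WT-nt libraries the log2 fold change in cortex was 2.08 (SE 0.78, unadjusted p = 0.0092), and 1.96 without the cortex libraries that stand apart in depth or detected elements (p = 0.0192). In TS hippocampus the treated group was not the higher one. TS-nt libraries, also of mice on water, had 63.7 ± 47.7 CPM (n = 8, 1 at 0) and TS-t 49.4 ± 35.9 (n = 13, 2 at 0). The log2 fold change of TS-t over TS-nt was -0.37 (p = 0.598). Of the 4 hippocampus groups, only WT-nt had most of its libraries at 0.

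The other 9 elements with the smallest p-values among those higher in WT-t had 2 mouse names (L1_Mus1_dup3965 and L1Md_F2_dup20315), 2 rodent Lx names (Lx4A_dup8042 and the Lx8_dup21450 described above) and 5 ancient names. L1Md_F2_dup20315, a copy of a mouse lineage younger than Lx, had 49.4, 107 and 175 CPM in WT-nt (lowest, median, highest) and 93.4, 203 and 324 in WT-t. Its log2 fold change was 1.05 (SE 0.31, p = 0.0011), and 11 of 17 WT-t libraries were above all WT-nt libraries. L1MD2_dup2032, an ancient fragment, had 20.6, 86.5 and 180 CPM in WT-nt and 104, 184 and 382 in WT-t (log2 fold change 1.04, SE 0.30, p = 8.1e-04), and all 17 WT-t libraries were above the WT-nt median. L1M5_dup2360 had 0, 20.4 and 60.0 CPM in WT-nt and 22.2, 62.5 and 163 in WT-t, again with all 17 above the WT-nt median. The largest of the remaining log2 fold changes was that of L1MA4_dup2187, 1.85 (SE 0.60), with 0 to 47.6 CPM in WT-nt and 0 to 301 in WT-t. The smallest was that of L1M2_dup10088, 0.55 (SE 0.18).

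Among the 10 elements lower in WT-t with the smallest p-values, Lx9_dup3456 came first, with 20.01, 114 and 170 CPM in WT-nt and 0, 32.3 and 108 in WT-t (log2 fold change -1.54, SE 0.49, p = 0.0021). All 17 WT-t libraries were below the WT-nt median and 4 were below all WT-nt libraries. L1_Mus3_dup2953 was the most abundant of them, with 713, 1294 and 1454 CPM in WT-nt and 245, 832 and 1506 in WT-t (log2 fold change -0.72, SE 0.28, p = 0.0138). A single WT-t library was above all WT-nt libraries and 6 were below them. L1Md_F2_dup9668 had the tightest WT-nt group, 211 to 314 CPM, and 15 of 17 WT-t libraries were below its lower end (log2 fold change -0.67, SE 0.27, p = 0.0139). The single copy of the active subfamilies in this group was L1Md_T_dup18310, at 412 to 779 CPM in WT-nt and 258 to 583 in WT-t (log2 fold change -0.45, SE 0.18, p = 0.0135). The others were Lx_dup23158 (-1.47), Lx9_dup19554 (-1.11), L1Md_F2_dup25834 (-1.01), L1Md_F2_dup37213 (-0.75), L1MEc_dup369 (-0.48) and L1MC4a_dup1200 (-0.43) on the log2 scale. edgeR's adjusted p-value was 0.9996 for each of these 10 elements.

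**Figure D3:**
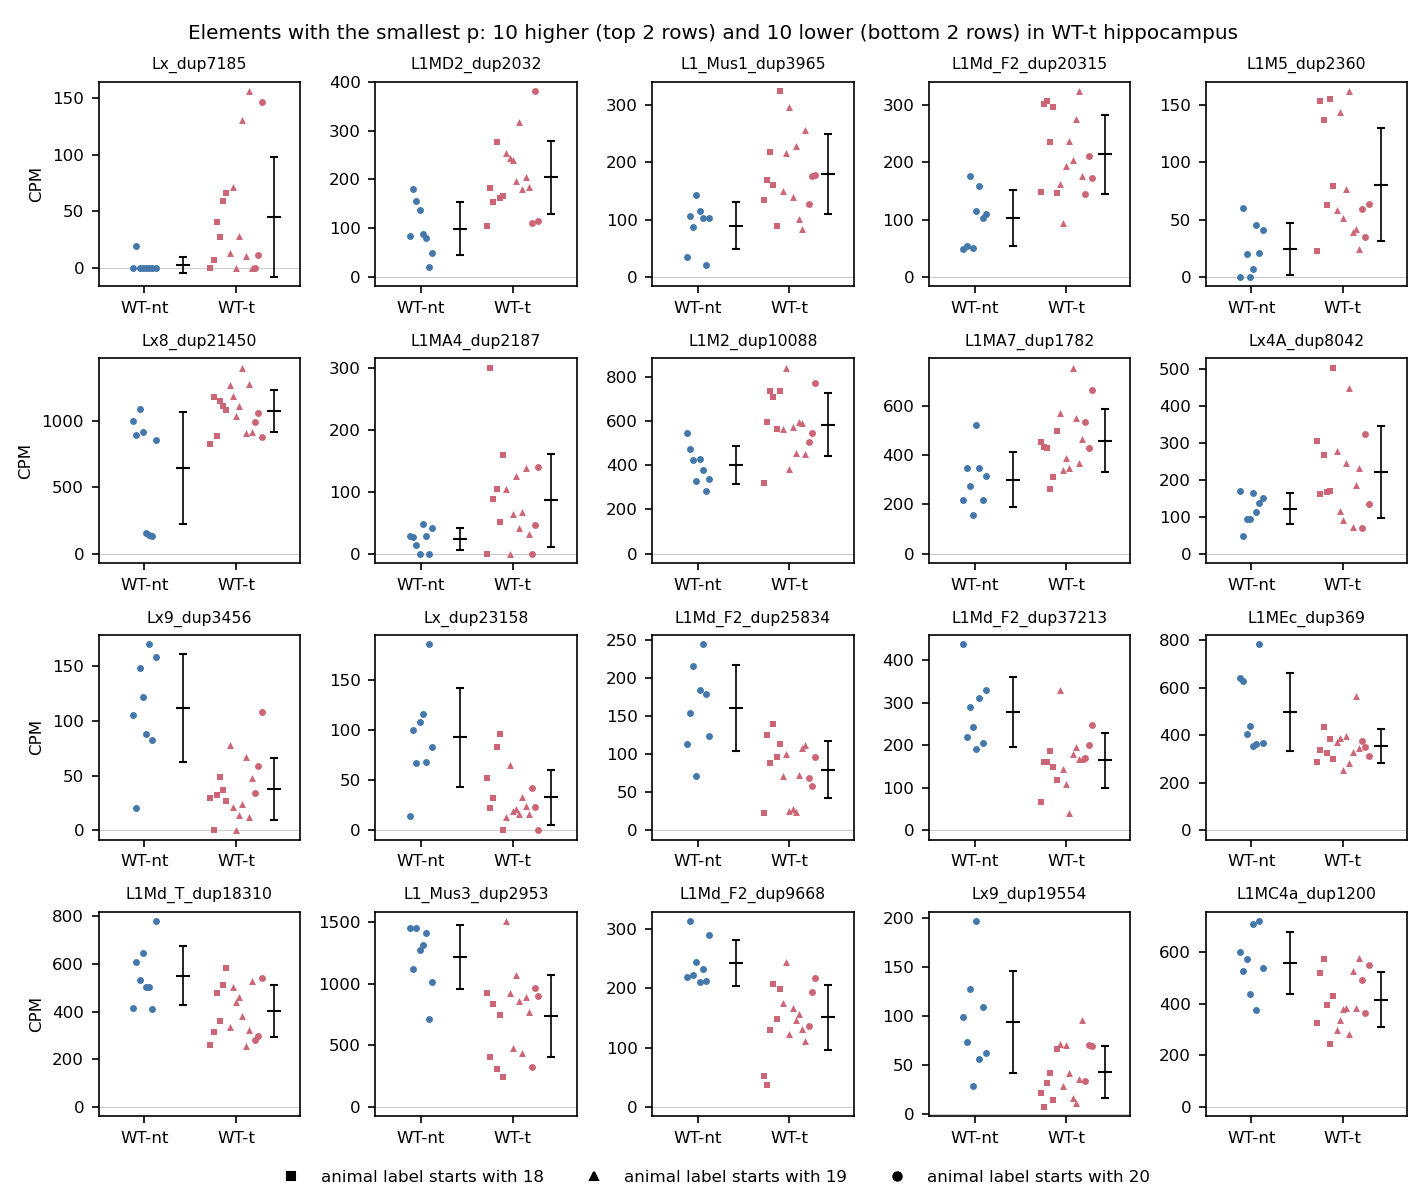
Each panel plots the CPM of 1 element in the 8 WT-nt and 17 WT-t hippocampus libraries, with the mean and SD as a bar beside the points and the marker giving the first digits of the animal label. The elements were chosen by their p-values in this comparison, 10 higher and 10 lower in WT-t, and in every panel the groups overlap. The 3 low WT-nt points of Lx8_dup21450 are the libraries high in Lx8_dup1602.

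When treated mice were limited to those whose labels start with 20, as those of all WT-nt mice do, the 20 elements kept their directions with 3 WT-t libraries left. The elements had been chosen on libraries that include all of these, so kept directions and p-values here are not independent evidence. Unadjusted p-values below 0.05 remained for Lx_dup7185 (6.3e-04), L1MA7_dup1782 (0.0067), L1MD2_dup2032 (0.0260) and L1M2_dup10088 (0.0347). The sizes fell by over 1.5 times for L1M5_dup2360 (1.09), Lx9_dup3456 (-0.71), Lx9_dup19554 (-0.65), L1Md_F2_dup37213 (-0.41), L1Md_F2_dup9668 (-0.38) and L1MC4a_dup1200 (-0.23). With the digits as a covariate, unadjusted p-values below 0.05 were left for 9 of these elements, and L1_Mus3_dup2953 (-0.46), L1MEc_dup369 (-0.24) and L1MC4a_dup1200 (-0.19) moved as much. The cortex of these mice tested 19 of the 20 elements, and 13 had the direction seen in hippocampus. The share over all elements tested in both tissues is not given here, so 13 of 19 is not set against it. With all cortex libraries, Lx_dup7185 and L1_Mus3_dup2953 (-0.60, p = 0.0233) had unadjusted p-values below 0.05, as had 86 of 5416 elements (1.59%). Without cortex libraries under 25000 detected elements or over 1000000 L1 counts, 13 of 19 again had the same direction. In that fit 3 had an unadjusted p-value below 0.05. Both libraries of a mouse come from that mouse, so that the tissues are not independent. In TS hippocampus, whose libraries are separate from those of WT, 11 of the 20 elements had the same direction and 0 had an unadjusted p-value below 0.05. The element-wise test of a difference between the treatment effects of WT and TS called 0 of 4238 elements (edgeR's smallest adjusted p = 0.9998, 132 unadjusted p-values below 0.05), and that of a difference between hippocampus and cortex called 0 of 4975 with the mouse as a block (smallest adjusted p = 1.00, 48 below 0.05). WT-t against WT-nt in cortex called 0 elements as well (smallest adjusted p = 0.999).

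Some of these 20 elements varied from mouse to mouse in the same way in both tissues. Other elements were not examined in this way, so how common such variation is among L1 elements was not tested. Across the 17 WT-t mice, the log2(CPM + 1) of L1_Mus3_dup2953 in hippocampus correlated with that in cortex with Pearson's r = 0.815 (permutation p = 1.9e-04, adjusted over 20 elements 0.0038) and Spearman's rho = 0.789 (permutation p = 2.9e-04, adjusted 0.0029). Without the 2 mice farthest from the median r was 0.793, and it was 0.836 within the 6 mice with labels starting with 18 and 0.909 within the 8 starting with 19. Treated mice low in this element in hippocampus were thus low in cortex too. L1MA4_dup2187 had r = 0.627 (permutation p = 0.0073, adjusted 0.0487) and rho = 0.802 (adjusted 0.0029), with r = 0.731 without 2 mice and 0.950 and 0.770 within labels 18 and 19. Lx_dup7185 had r = 0.607 (permutation p = 0.0073, adjusted 0.0487) and rho = 0.658 (adjusted 0.0385), with r = 0.613 without 2 mice and 0.836 and 0.758 within labels. The other 17 elements did not pass an adjusted p-value of 0.1 with both coefficients. Lx8_dup21450 had r = 0.141 (permutation p = 0.625) and rho = 0.576 (adjusted 0.0848), with the WT-t cortex library high in Lx8_dup1602 among the points.

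The 5 most abundant elements held 10.9% of the L1 counts of the 25 libraries. L1ME3Cz_dup549, an ancient fragment, had 37050 to 137181 CPM in WT-nt (mean 76026 ± 28380) and 32737 to 110230 in WT-t (69005 ± 19416), a range of several fold within each group. L1MEd_dup2089 and L1MEi_dup274 also varied widely, with log2 fold changes of -0.22 (SE 0.32) and -0.14 (SE 0.18). Lx3B_dup3459 ran from 160 to 21719 CPM in WT-nt and from 95.2 to 28818 in WT-t, with libraries at both ends in both groups. Lx7_dup29483 had the smallest spread relative to its mean and, without a covariate, was the only one with a p-value below 0.05. It had 23337, 29356 and 37953 CPM in WT-nt and 29049, 33013 and 41326 in WT-t (lowest, median, highest), and 16 of 17 WT-t libraries were above the WT-nt median. Its log2 fold change was 0.21 (SE 0.09, unadjusted p = 0.0245, edgeR's adjusted p = 0.9996). In TS hippocampus, in other libraries, TS-t over TS-nt was 0.23 (SE 0.10, p = 0.0202). With the first digits of the label as a covariate the WT difference of Lx7_dup29483 was 0.083 (p = 0.476), while L1ME3Cz_dup549 was at -0.53 (p = 0.0247), L1MEi_dup274 at -0.52 (p = 0.0206), L1MEd_dup2089 at -0.63 (p = 0.116) and Lx3B_dup3459 at 0.067 (p = 0.947). Without the 3 libraries high in Lx8_dup1602, Lx7_dup29483 was at 0.13 (p = 0.236). Without WT-nt replicate 1, L1ME3Cz_dup549, L1MEi_dup274 and L1MEd_dup2089 were at 0.040, 0.025 and -0.037.

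Of 17 elements that the study lists for hippocampus, 16 passed the filter, 11 higher and 5 lower in WT-t, with log2 fold changes between -1.04 and 1.03. Lx8_dup1602 is the one that did not pass. The study chose them on libraries that include these WT-nt libraries, so that they are not independent evidence of a direction. L1ME1_dup2108 (0.51, p = 0.0083), Lx6_dup13936 (0.48, p = 0.0316) and L1MC5_dup3240 (-0.69, p = 0.0306) had unadjusted p-values below 0.05, and 0 were called. With the label digits as a covariate they were at 0.34, 0.39 and -0.20, each with a p-value above 0.05. The median log2 fold change of the 16 was 0.23, beside -0.004 for all tested elements.

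Summing all elements of a subfamily gave more counts per feature, with a median standard error of 0.07 on the log2 scale beside 0.49 for elements. Of 132 subfamilies tested, edgeR called 0 (0%) with a smallest adjusted p-value of 0.612. Unadjusted p-values below 0.05 were found for 5 (3.79%), 2 higher (1.52%) and 3 lower (2.27%) in WT-t. DESeq2 called 0 as well. In the subfamilies with active copies, L1Md_T had 22178 to 27416 CPM in WT-nt (24079 ± 1680) and 20312 to 25064 in WT-t (22694 ± 1188), a difference of -5.74% (95% interval -11.2 to 0.0036%, p = 0.0501). L1Md_A differed by -4.06% (-9.07 to 1.23%) and L1Md_Gf, with a median of 237 counts per library, by -3.85% (-15.8 to 9.85%). The older L1Md_F2, the subfamily with the most counts among these, differed by -2.61% (-5.41 to 0.262%), L1Md_F3 by -1.86% (-6.98 to 3.55%) and L1Md_F by 1.26% (-7.70 to 11.1%). None of these 6 passed the test, and their intervals reached no lower than -15.8% and no higher than 11.1%. These levels are relative to the other L1 counts, so that a change shared by all L1 elements would not show in them. Without the 3 libraries high in Lx8_dup1602 the log2 fold change of L1Md_T was -0.13 (p = 0.0079) beside -0.085 with them, and that of L1Md_A -0.093 (p = 0.0417) beside -0.060, with an adjusted p-value of 0.915 for both.

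The 2 subfamilies higher in WT-t at an unadjusted p-value below 0.05 were ancient ones. L1MC4 had 13297 ± 1653 CPM in WT-nt and 14574 ± 1277 in WT-t (log2 fold change 0.13, SE 0.05, p = 0.0139), and 1 element, L1MC4_dup2661, held 36.7% of its counts. L1MA5 had 5227 ± 363 and 5645 ± 419 CPM (0.11, SE 0.05, p = 0.0264). The 3 lower ones were the mouse subfamily L1_Mus4 (9246 ± 632 and 8346 ± 632 CPM, -0.15, SE 0.06, p = 0.0123), the rodent subfamily Lx8b (20653 ± 839 and 19757 ± 695 CPM, -0.064, SE 0.023, p = 0.0077) and the ancient L1M3f, whose 31 elements had a median of 20 counts per library (-0.61, SE 0.27, p = 0.0267). Without WT-nt replicate 1, the water library that stands apart, L1MC4 (0.19, adjusted p = 0.0415) and Lx8b (-0.091, adjusted p = 0.0513) passed the threshold of edgeR's test. With the label digits as a covariate L1MC4 was at 0.047 (p = 0.470) and Lx8b at -0.060 (p = 0.0538). Without the 3 libraries high in Lx8_dup1602 L1MC4 was at 0.074 (p = 0.231) and Lx8b at -0.047 (p = 0.129). By age, 48 of 89 subfamilies with ancient names, among which MusHAL1 was counted as a HAL1 name, were higher in WT-t. Their median log2 fold change was 0.015. Of 39 with rodent or mouse names 13 were higher, with a median of -0.022. The 4 with other names were all higher (median 0.27, median standard error 0.22). Over all 132 subfamilies 65 were higher, with a median of -0.0026. The levels are relative to the other L1 counts, so the groups of names are not independent. Whether direction depends on age was not tested.

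**Figure D4:**
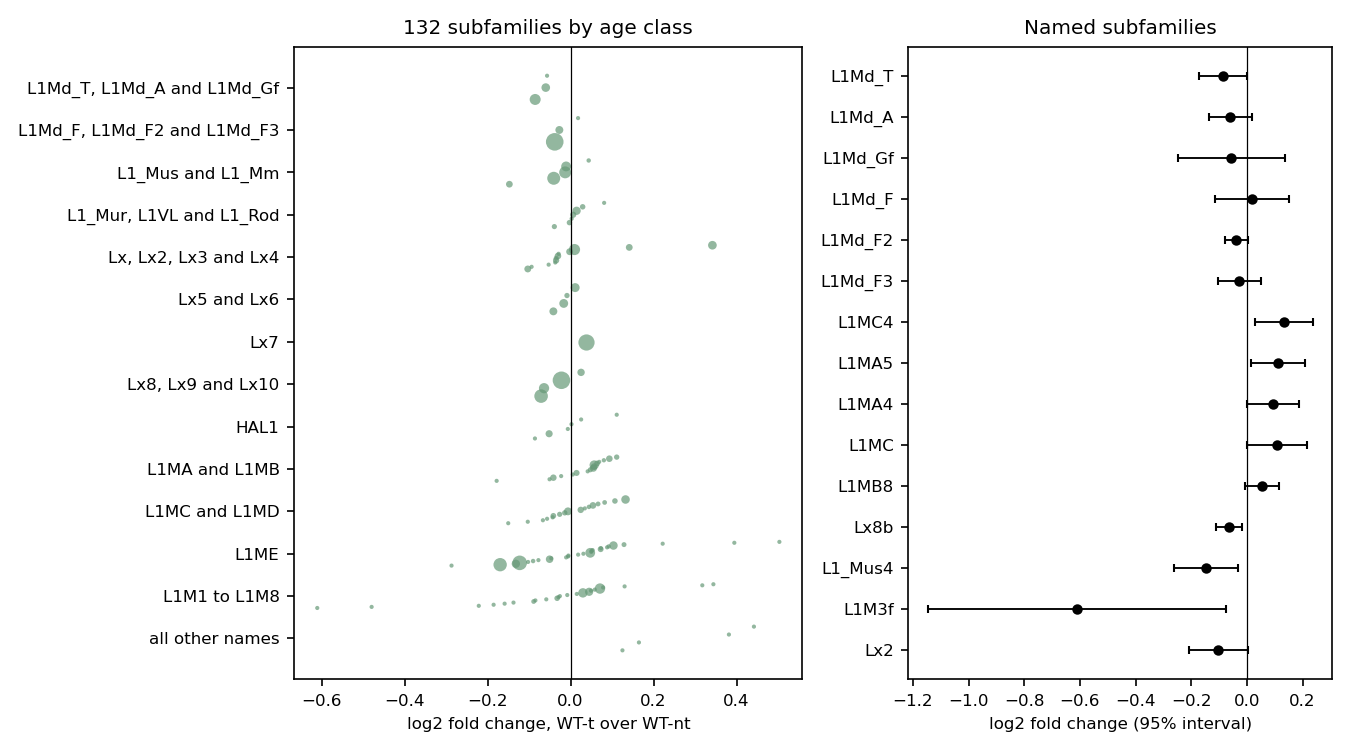
Left, the log2 fold change of WT-t over WT-nt for each of 132 subfamilies, placed by age class from young (top) to ancient, with larger points for more counts. Right, the named subfamilies with 95% intervals, of which L1M3f has the widest interval, and the intervals of L1MC4, L1MA5, Lx8b, L1_Mus4 and L1M3f do not include 0.

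Shares of L1 counts by age class differed little. Of 14 classes, 0 passed an adjusted p-value of 0.1 in an exact two-sided permutation test (lowest adjusted p = 0.348). The lowest p-value belonged to the ancient L1MA and L1MB names, 8.84 ± 0.32% of L1 counts in WT-nt and 9.17 ± 0.36% in WT-t (exact permutation p = 0.0421). L1Md_T, L1Md_A and L1Md_Gf together held 3.95 ± 0.22% and 3.77 ± 0.22% (exact permutation p = 0.0747). A share depends on the most abundant element of its class, and leaving out that element in every class changed the outcome. L1MA and L1MB then held 9.58 ± 0.20% in WT-nt and 9.98 ± 0.31% in WT-t (exact permutation p = 0.0034, adjusted 0.0303), with 16 of 17 WT-t libraries above the WT-nt median. With treated mice limited to labels starting with 20 the exact permutation p was 0.0485, not adjusted. In that setting it was 0.0303 for Lx, Lx2, Lx3 and Lx4 (0.728 with all treated mice) and 0.0424 for the class of remaining names. It was above 0.05 for every other class. The Lx7 class turned from 0.170 percentage points higher to 0.150 lower in WT-t (3.65 ± 0.13% and 3.50 ± 0.14%, exact permutation p = 0.0152, adjusted 0.0711). Lx7_dup29483 alone holds 36.5% of the class. The remaining names went from 0.0434% to 0.0564% (adjusted 0.0303) without X9_LINE_dup12, which holds 85.3% of their counts. Without the libraries under 25000 detected elements, and with the most abundant elements kept, 0 classes passed (lowest adjusted p = 0.253).

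**Figure D5:**
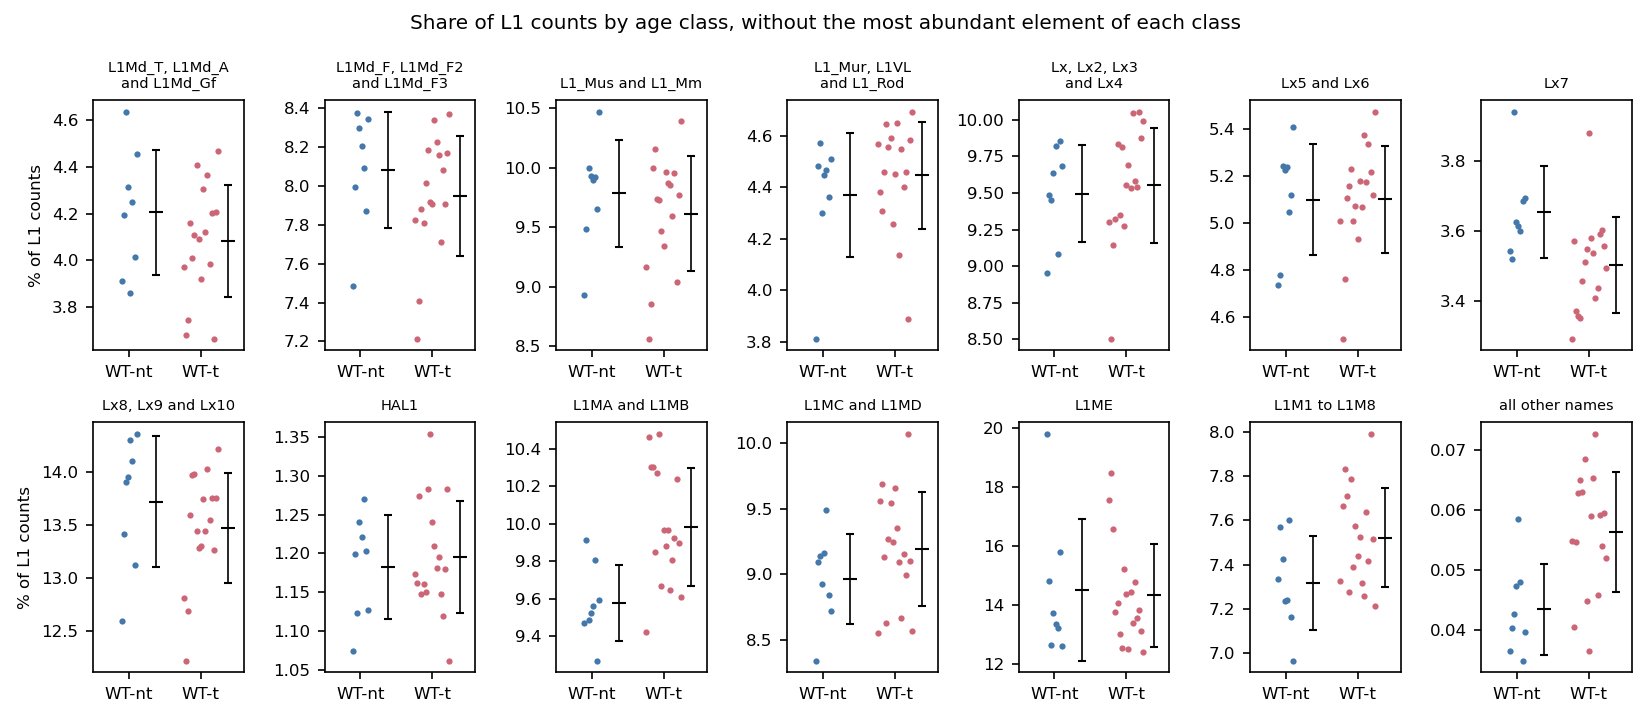
Each panel gives the share of L1 counts (%) held by 1 age class in the 8 WT-nt and 17 WT-t hippocampus libraries after the most abundant element of each class was left out, with mean and SD beside the points; vertical axes do not start at 0. The L1MA and L1MB points of WT-t lie mostly above those of WT-nt (9.98% and 9.58% on average), and those of Lx7 mostly below.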

How the data were processed

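Total RNA libraries of wild-type hippocampus (8 WT-nt, 17 WT-t) were compared, with the other hippocampus and cortex libraries in the models. The deposited counts are whole numbers of reads per L1 element that the authors did not normalize. Per the study's methods and processing notes, the authors used Trimmomatic 0.38 for trimming, HISAT2 2.1.0 for alignment to GRCm38/mm10, keeping at most 5 alignments of a read, and Telescope for counting, whose version is not given in the sources used here. Gene counts were not used here. Of 430083 elements, 41336 had no count. Reads that fit several copies are assigned by a model, so counts of near-identical copies are uncertain.

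Elements and summed subfamilies (name before "_dup") were filtered with filterByExpr (minimum count 10, minimum total 15), TMM-normalized and tested with edgeR 4.0.16 (glmQLFit, robust) in R 4.3.3 over all 46 hippocampus libraries in 4 groups, with Benjamini-Hochberg adjustment and a threshold of 0.1, the study's. Shares, totals and Lx8_dup1602 were tested with exact two-sided permutation tests over 1081575 splits, and correlations with 100000 permutations (scipy 1.17.1 and numpy 2.4.6 in Python 3.11.15). DESeq2 1.42.0, other scalings, filters, groups in the model, the label digits as a covariate and leaving out each of 25 libraries were alternatives. Nothing in the labels shows that libraries of a group are independent of shared handling, so p-values measure the spread between these libraries. Models were tested on simulated data. The named elements were Lx8_dup1602, the 10 higher and 10 lower with the smallest p-values, the 5 most abundant and those the study lists for hippocampus; the named subfamilies were 6 L1Md subfamilies and the 5 higher and 5 lower with the smallest p-values. L1Md_F2_dup42623, X9_LINE_dup12, the subfamily Lx8 and the pairing of Lx8_dup1602 with Lx8_dup21450 were picked with their values in view. The members and lists were chosen with earlier results of these data known.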

Additional observations from a re-analysis of the deposited data

Results flagged for a closer look

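A library of WT-nt stood far from the other 7 in 12 of 57 values tested (Dixon's criterion). Chance alone gives about 1 in 20 for independent values. These values are not independent, so that 12 of 57 cannot be set against that rate. The shares of a library have a fixed total, and the L1ME share includes the L1ME3Cz, L1MEd and L1MEi elements. In shares of L1 counts these were the lowest L1Md_F, L1Md_F2 and L1Md_F3 share (6.56%), the lowest L1_Mus and L1_Mm share (8.01%), the lowest L1_Mur, L1VL and L1_Rod share (3.50%), the highest HAL1 share (2.103%) and the highest L1ME share (25.0%). In CPM they were the highest Lx_dup7185 (20.01), L1ME3Cz_dup549 (137181), L1MEd_dup2089 (105979), L1MEi_dup274 (43893), L1MC4 (17230) and L1MC (6409) and the lowest Lx8b (18745). The HAL1 share belonged to replicate 6. The other 4 shares and the values of the L1ME3Cz, L1MEd and L1MEi elements belonged to replicate 1, the library with the fewest detected elements. The Lx_dup7185 value belonged to replicate 2, the only WT-nt library with a count of it. Whether the shares move with the number of detected elements was not tested.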

How the results depend on the processing

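edgeR called 0 elements with the other scaling, model groups, label covariate and label restriction, and DESeq2 called 0. Filters that admit sparse elements called 15955 of 126067 elements (at least 10 counts in total) and 13239 of 270853 (no filter). Of these called elements 96.5% and 97.2% had a mean below 1 count per wild-type library. Only 22 and 3 of them were among the 4238 elements tested otherwise. With these filters the difference in treatment effect between WT and TS was called for 15260 of 126067 and 12430 of 270853 elements. Leaving out each library in turn called 0 to 1 elements and 0 to 2 subfamilies. The number of elements tested differed between settings. The looser criterion was met by 21 of 4238 elements in the main fit and by 6 of 2830 in a fit with WT only. It was met by 46 of 4238 with the label covariate and by 100 of 6535 with labels starting with 20. DESeq2 gave 956 of 270853 with 4 groups and 923 of 218348 with 2 groups. The sparse filters gave 26694 of 126067 and 52126 of 270853, and leaving out a library gave 16 to 36. Lx8_dup1602 was called in the sparse fits (adjusted p = 1.53e-05 and 0.0076) and in no other (0.402 with DESeq2 and 4 groups). The cause of these changes was not tested.

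The difference of Lx8_dup1602 was -0.98 on the log2 scale, -2.02 in ranks (exact permutation p = 0.548), -292 CPM with labels starting with 20 (exact permutation p = 0.364), -332 to -194 CPM with a library left out, and 144 CPM higher in WT-t when summed with Lx8_dup21450. With labels starting with 20, the sum of L1 counts was 4023 higher and elements with a count 5506 higher in WT-t. Without the most abundant element, 3 classes passed. Chosen after seeing the data, leaving out libraries under 25000 elements called 0 elements and 2 subfamilies (L1MC4 and Lx8b). Leaving out the 3 libraries high in Lx8_dup1602, also chosen after seeing the data, called 0 and 0. In that fit 52 of 5642 elements passed the looser criterion.

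Directions turned in small differences. With labels starting with 20 these were the shares of L1Md_F names (0.0849 percentage points), Lx5 and Lx6 (0.163), Lx8 to Lx10 (0.0131) and HAL1 (0.0164), and the log2 fold changes of L1MEg2_dup44 (0.092), Lx5c_dup5368 (0.087), Lx7_dup11750 (0.018), L1Md_Gf (0.19) and L1Md_F3 (0.0032). Without the most abundant element they were the shares of Lx5 and Lx6 (0.0031), Lx7 (-0.150) and HAL1 (0.0132) and the subfamily L1Md_F3 (0.0013). With the label covariate they were L1MC4_dup2661 (-0.019) and L1Md_F (-0.069). With a library left out they were L1ME3Cz_dup549 (-0.24 to 0.040), L1MEi_dup274 (-0.25 to 0.025), L1MEg2_dup44 (-0.37 to 0.014) and L1Md_F (-0.017 to 0.032).

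The mouse was the block in the comparison of tissues, since both libraries come from 1 animal. Without this pairing as a replicate block the test also called 0 elements.

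Depth limits single elements, which had a median of 9 counts per library among those tested.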
